A study of Mus musculus with 23 samples.

Results

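Cartilage from the joints of male Str/ort mice, an inbred strain that develops osteoarthritis spontaneously as it ages, was compared between 40 and 18 weeks of age. The 8 arrays compared, 4 per age, were taken by their titles from a series of 23 arrays. The remaining arrays are Str/ort at 8 weeks (3 arrays) and CBA, a strain known not to develop the disease, at 8, 18 and 40 weeks (4 arrays each). All mice were untreated males on a standard diet, and per the labels the ages ran from 18 to 20 and from 40 to 42 weeks. The series calls the arrays biological replicates. The labels give neither the number of mice behind an array nor a joint score, so early and late disease stand here for the ages alone, and the p-values measure the spread between these samples.

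Articular cartilage is laid down by chondrocytes as a network of type II collagen filled with the proteoglycan aggrecan and coated with lubricin. In osteoarthritis this matrix is cut by aggrecanases such as Adamts5 and by the collagenase Mmp13, while the bone below it and the synovial lining around it are remodelled. A sample dissected from a mouse joint can also carry bone, marrow, tendon and muscle, and in bulk RNA fewer cells of a type and less RNA per cell cannot be told apart.

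Each value below is a log2 signal of 1 gene on 1 array, and a log2 difference is the mean of the 40-week arrays minus the mean of the 18-week arrays. Levels of different genes were not compared, because each gene has its own probes. The median signal over 19937 genes lay between 8.28 and 8.31 on the 8 arrays. Cartilage genes gave signal on all of them: Col2a1, type II collagen, read 9.95 to 11.38, Acan, aggrecan, 10.09 to 12.23, and Prg4, lubricin, 13.37 to 13.74. Markers of other tissues did so too, with array means of 12.20 to 12.74 over 18 neutrophil genes, 10.77 to 11.59 over 12 erythroid genes and 7.55 to 11.28 over 30 skeletal muscle genes. Outside this comparison, 2 CBA arrays stood apart. Measured as the SD over genes of an array minus the mean of its group's other arrays, replicate 1 of CBA at 8 weeks gave 0.454 and replicate 3 of CBA at 40 weeks 0.656, against 0.146 to 0.306 for every other array. In the main fit they touch the Str/ort comparison only through the shared estimate of spread, and counts are given with and without both. Where a marker mean is used as a covariate, they also help set its slope, and so the Str/ort differences themselves. The erythroid mean was 11.11 in replicate 3 of CBA at 40 weeks, against 11.86 to 12.10 in the rest of its group. In replicate 1 of CBA at 8 weeks it was 10.95, against 11.64 to 11.81. CBA differences are given also without replicate 3 of 40 weeks, as plain differences of means with no test. The sources used here give no scan date or batch.

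No gene passed the test between 40 and 18 weeks. With limma on all 23 arrays and Benjamini-Hochberg adjustment, 0 of 19937 genes (0%) had an adjusted p under 0.05, and the lowest adjusted p was 0.0657, for Zbtb16 and Flrt2. At an unadjusted p under 0.05, 457 genes (2.29%) lay higher at 40 weeks and 777 (3.9%) lay lower. The split depended on scaling: after quantile normalization, 842 lay higher and 826 lower, so that the higher share moved from 37% to 50.5%. In 622 genes (3.12%) all 4 arrays of 40 weeks lay above all 4 of 18 weeks, and in 646 (3.24%) all 4 lay below. The median SE of a log2 difference was 0.117. The differences were mostly small, with a median size of 0.0836, and 5 genes lay more than 1 log2 unit higher and 15 more than 1 lower. By any amount, 11130 of the 19937 genes lay higher and 8807 lower. Members of a gene list can vary together on an array, so counts of direction in a list are not counts of independent genes.

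Without the 2 CBA arrays the median SE was 0.0846 and 67 genes passed, 23 higher (0.115% of all genes) and 44 lower (0.221%). This count rested on single arrays of the comparison. It was 0 when Str/ort 40 weeks replicate 4 was also left out and 1 without 18 weeks replicate 1 or 18 weeks replicate 2. It was 8 without 40 weeks replicate 3, 37 without 40 weeks replicate 2 and 54 without 18 weeks replicate 3. It reached 236 without 40 weeks replicate 1 and 564 without 18 weeks replicate 4. Leaving out CBA 40 weeks replicate 3 alone gave 10 genes, and leaving out CBA 8 weeks replicate 1 alone gave 0. Adjusted p-values given below as "without the 2 arrays" come from that fit, and all other p-values from the fit to 23 arrays.

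**Figure D1:**
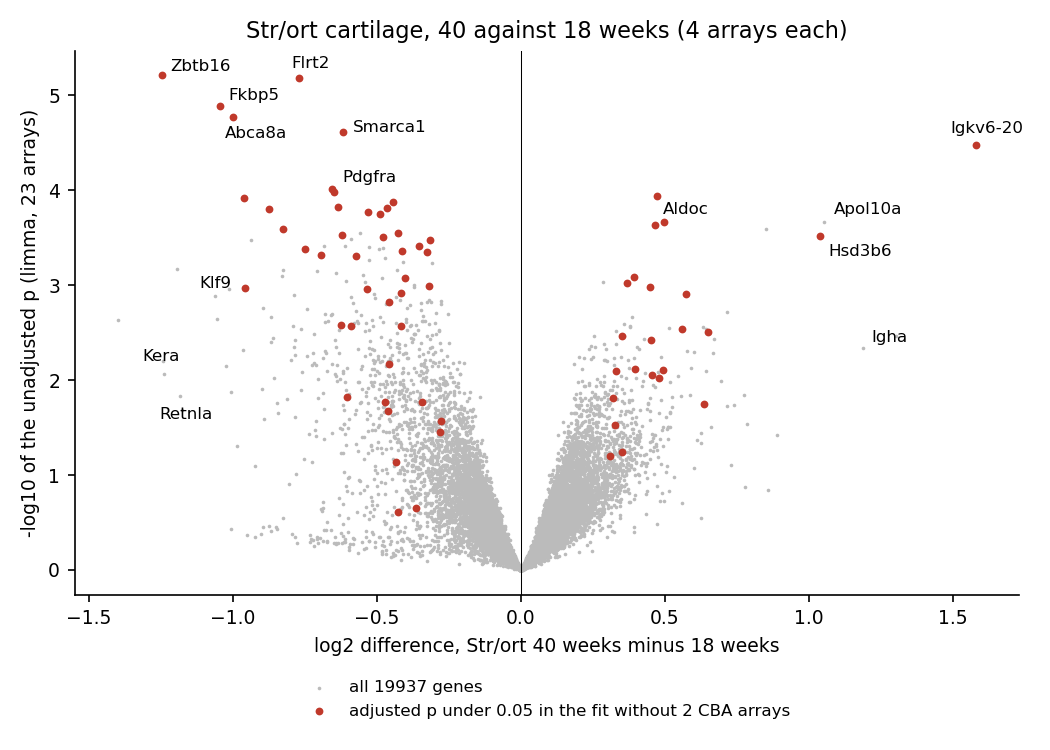
Each point is 1 of 19937 genes, with the log2 difference between 40 and 18 weeks in Str/ort cartilage on the horizontal axis and the -log10 of the unadjusted limma p on the vertical axis. Red points are the 67 genes with an adjusted p under 0.05 in the fit without the 2 CBA arrays; the points reach from -1.40 to 1.58.

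The lowest p-values belonged to genes with less signal at 40 weeks: Zbtb16, Flrt2, Fkbp5, Abca8a and Smarca1 (adjusted p 0.0657 to 0.098 in limma). Zbtb16 and Fkbp5 are given here with Klf9, Tsc22d3 and Per1, which ranked further down. Flrt2, Abca8a and Smarca1 are given further below. Zbtb16, which encodes the zinc finger transcription factor PLZF, read 10.86, 11.32, 10.34 and 10.31 at 18 weeks and 9.45, 9.39, 9.81 and 9.18 at 40 weeks. The groups did not overlap, and the log2 difference was -1.25 (SE 0.209, adjusted p 0.0657, and 0.00852 without the 2 arrays). Fkbp5, an immunophilin that binds the glucocorticoid receptor complex, read 10.88, 11.05, 10.05 and 10.08 at 18 weeks and 9.26, 9.70, 9.63 and 9.29 at 40 weeks. Its log2 difference was -1.05 (SE 0.185, adjusted p 0.0837, and 0.0209 without the 2 arrays). Klf9, a Krüppel-like transcription factor, read 10.37, 10.83, 9.76 and 9.71 at 18 weeks and 8.99, 9.35, 9.52 and 8.97 at 40 weeks, a log2 difference of -0.96 (adjusted p 0.34, and 0.0455 without the 2 arrays). Tsc22d3, which encodes the protein GILZ, read 11.38, 11.41, 10.49 and 10.48 at 18 weeks and 9.73, 10.27, 10.46 and 9.99 at 40 weeks, a log2 difference of -0.83 (adjusted p 0.312, and 0.0605 without the 2 arrays). Per1, a period gene of the circadian clock, read 10.36, 10.52, 9.77 and 9.59 at 18 weeks and 9.36, 9.67, 9.77 and 9.11 at 40 weeks; these ranges overlapped and the log2 difference was -0.58 (adjusted p 0.416).

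In all 5 of these genes, replicates 1 and 2 of 18 weeks read higher than replicates 3 and 4. The mean of 12 erythroid markers was lowest in the same 2 arrays, at 10.91 and 10.77 against 11.19 to 11.59 in the other 6. With that mean as a covariate the log2 difference was -0.96 for Zbtb16, -1.06 for Fkbp5, -0.53 for Klf9, -0.57 for Tsc22d3 and -0.43 for Per1. Values with a covariate, here and below, rest on a slope that also draws on the CBA arrays, including those that stood apart. The erythroid mean itself differed between the ages, so this covariate takes out part of an age difference whatever its source. The part of red cell precursors was not tested. Glucocorticoid hormones are known to induce each of the 5 in many tissues; they were put side by side here after their values were seen, and no test was made of them as a group. At 8 weeks the 3 Str/ort arrays read 9.10 to 9.23 for Zbtb16, 8.94 to 9.29 for Fkbp5, 9.0 to 9.20 for Klf9, 9.48 to 9.85 for Tsc22d3 and 8.78 to 8.96 for Per1. The 18-week arrays thus lay above both the 8-week and most of the 40-week arrays. From 8 to 18 weeks, where 10 genes (0.0502%) passed the test, 4 of the 5 rose: Zbtb16 by 1.55 (adjusted p 0.00819), Fkbp5 by 1.43 (adjusted p 0.00819), Tsc22d3 by 1.28 (adjusted p 0.0363) and Per1 by 1.19 (adjusted p 0.0111) on the log2 scale. The Klf9 difference of 1.10 did not pass (adjusted p 0.16). Both age comparisons use the same 18-week arrays, so a high or low 18-week sample moves them in opposite directions.

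In CBA none of these genes lay lower at 40 weeks by more than its SE. The log2 difference was 0.18 (SE 0.209) for Zbtb16, -0.0050 (SE 0.185) for Fkbp5, 0.21 (SE 0.253) for Klf9, 0.27 (SE 0.212) for Tsc22d3 and 0.18 (SE 0.172) for Per1. Without CBA 40 weeks replicate 3 the 5 values were -0.05, 0.05, -0.08, 0.07 and 0.20. The difference between the strains was -1.42 (SE 0.296) for Zbtb16 and -1.04 (SE 0.262) for Fkbp5, and neither passed adjustment over all genes (adjusted p 0.993 for both in limma). Without that array these were -1.20 and -1.10.

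The promoters of Fkbp5 and Per1 are shown because both genes lay highest at 18 weeks and both hold the E-box CACGTG, the letters that clock transcription factors are known to bind, written in capitals. The sequences are the 250 bases before the annotated start in RefSeq, build GRCm38.p6, from chr17:28486150-28486399 on the minus strand for Fkbp5 and chr11:69098699-69098948 on the plus strand for Per1, where the first of 2 listed starts was used.
Fkbp5: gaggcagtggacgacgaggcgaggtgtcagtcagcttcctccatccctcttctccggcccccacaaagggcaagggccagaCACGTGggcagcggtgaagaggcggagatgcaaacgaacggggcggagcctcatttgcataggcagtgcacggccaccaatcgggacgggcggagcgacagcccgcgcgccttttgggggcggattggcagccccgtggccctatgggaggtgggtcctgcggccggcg
Per1: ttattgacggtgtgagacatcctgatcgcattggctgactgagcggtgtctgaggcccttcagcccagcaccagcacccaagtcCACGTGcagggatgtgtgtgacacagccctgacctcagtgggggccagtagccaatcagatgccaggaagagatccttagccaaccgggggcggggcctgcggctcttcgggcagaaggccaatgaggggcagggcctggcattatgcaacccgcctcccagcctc
The E-box lies 169 to 164 bases before the start of Fkbp5 and 166 to 161 bases before that of Per1. It reads the same on both strands and occurs in 8.4% of the 15562 promoters of tested genes, searched from 250 bases before to 50 after the start. Among the genes that passed without the 2 arrays, it occurs in 5 of 41 promoters (12.2%) of those lower at 40 weeks and in 2 of 21 (9.52%) of those higher. The letters ACANNNTGT, a core of the glucocorticoid receptor element searched on both strands after the values were seen, are in 5.67% of all promoters and in neither sequence above. They are in 1 of 41 promoters (2.44%) of the lower genes and in 1 of 21 (4.76%) of the higher. Of the other motifs searched, TATAAA of the TATA box was in 4.88% of the lower genes' promoters against 12.1% of all, and GGGCGG of the GC box in 53.7% against 49.9%. These are matches of letters and not measured binding.

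The clock list, which holds Per1, lay mostly lower at 40 weeks. Of its 17 genes 16 lay lower, against 8807 of all 19937 genes. At an unadjusted p under 0.05, 4 lay lower, Per1 among them, against 3.9% of all genes, and 1 lay higher against 2.29%. The list median was -0.17, and -0.05 with the erythroid mean as a covariate. Nr1d1, the clock repressor REV-ERB alpha, read 10.68 to 11.52 at 18 weeks and 10.15 to 10.77 at 40 weeks, a log2 difference of -0.61 (SE 0.217, adjusted p 0.564), or -0.24 with that covariate. Its relative Nr1d2 read 9.70 to 10.14 and 9.18 to 9.66, with no overlap and a log2 difference of -0.44 (adjusted p 0.603). Clock, an activator of the cycle, differed by -0.29, and Cry1, a repressor, by 0.15 in the other direction. Dbp, a clock output gene, differed by -0.09 and Arntl, the partner of Clock, by -0.08, both with overlapping arrays. The part of the clock genes in the differences of Zbtb16, Fkbp5, Klf9, Tsc22d3 and Per1 was not tested.

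**Figure D2:**
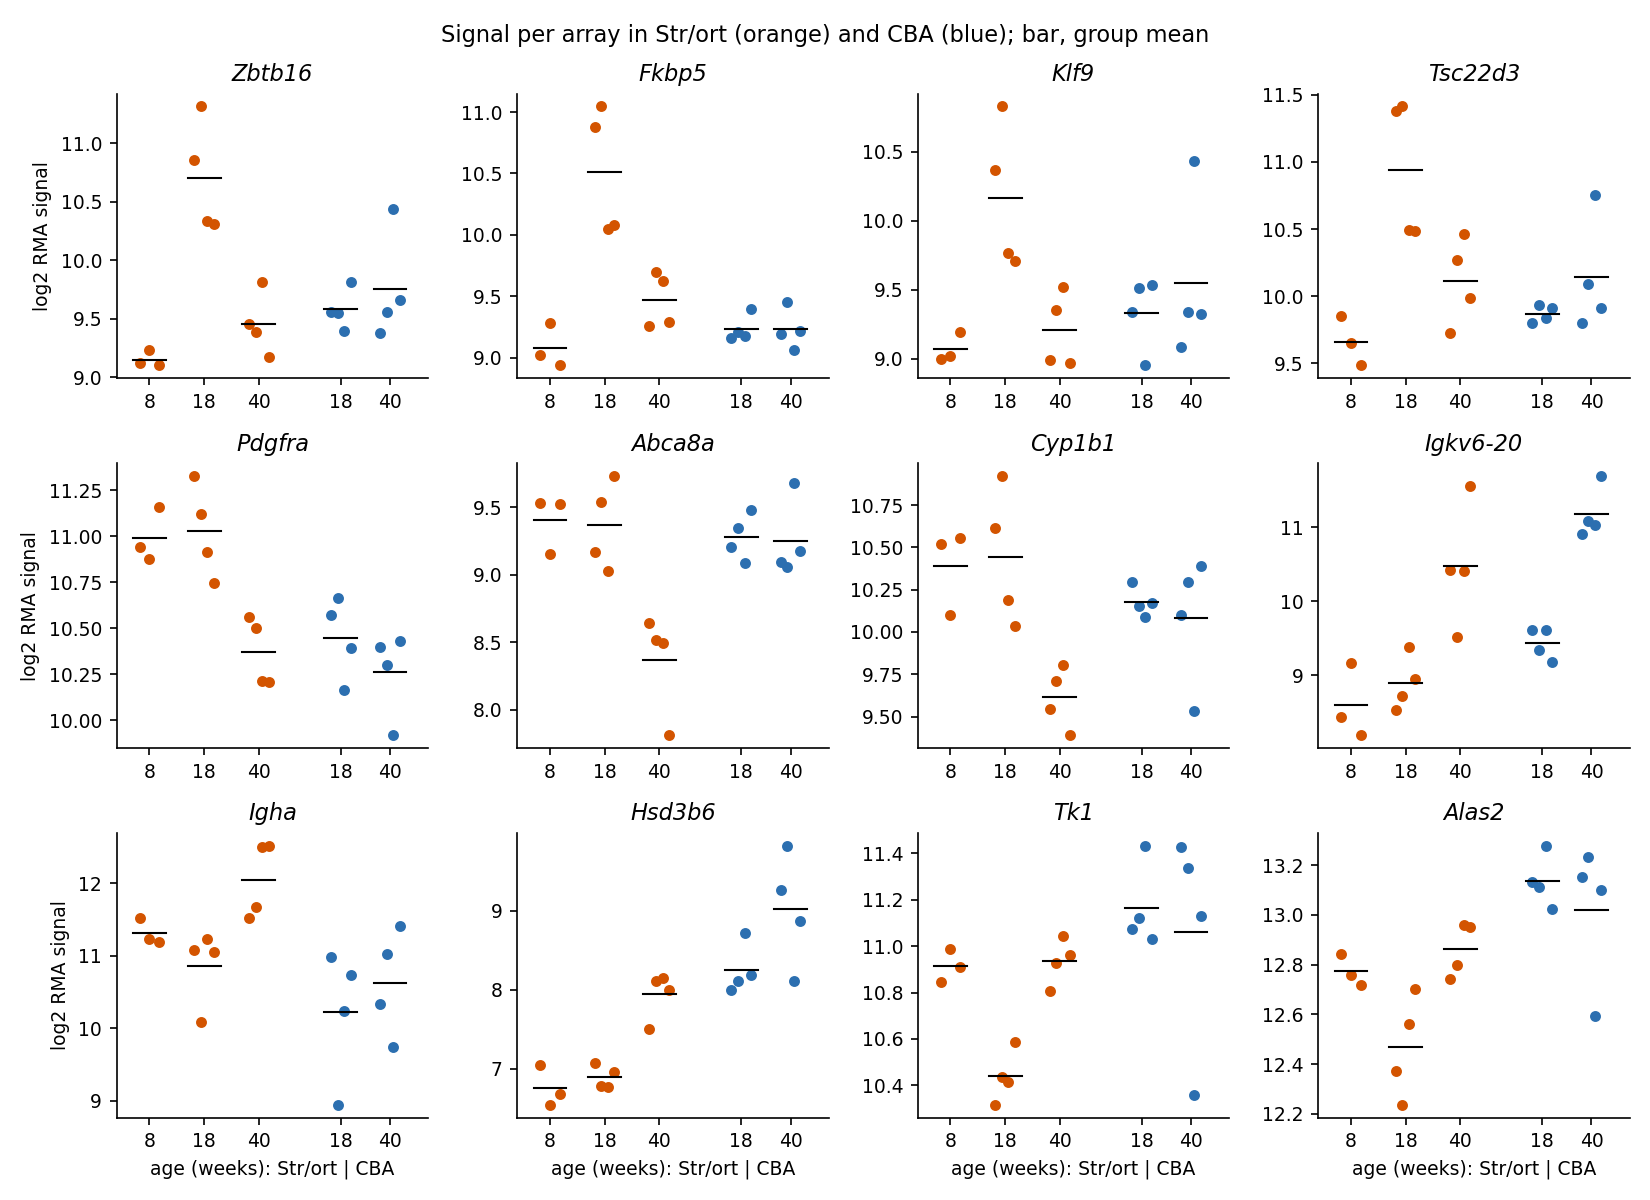
Log2 signal of 12 genes on each array (vertical axes, points) by age in weeks for Str/ort in orange and CBA in blue, with bars at group means. Zbtb16, Fkbp5, Klf9 and Tsc22d3 lay highest in Str/ort at 18 weeks, Abca8a and Cyp1b1 lay lowest in Str/ort at 40 weeks, and Igkv6-20 lay higher at 40 weeks in both strains.

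Several genes of fibroblasts and of growth factor signalling lay lower at 40 weeks than at both earlier ages. Abca8a, a lipid transporter, read 9.16, 9.53, 9.03 and 9.73 at 18 weeks and 8.64, 8.51, 8.49 and 7.81 at 40 weeks, a log2 difference of -1.0 (SE 0.181, adjusted p 0.0837, and 0.0209 without the 2 arrays). At 8 weeks it read 9.15 to 9.53, and in CBA it differed by -0.03 (SE 0.181), or by -0.17 without CBA 40 weeks replicate 3. Pdgfra, a receptor for platelet-derived growth factor found on connective tissue progenitors, read 11.33, 11.12, 10.91 and 10.74 at 18 weeks and 10.56, 10.50, 10.21 and 10.21 at 40 weeks. The groups did not overlap, and the log2 difference was -0.66 (SE 0.137, adjusted p 0.22, and 0.0281 without the 2 arrays). Flrt2, an adhesion protein of fibroblasts, read 9.73 to 10.28 at 18 weeks and 8.95 to 9.46 at 40 weeks, a log2 difference of -0.77 (SE 0.13, adjusted p 0.0657, and 0.0209 without the 2 arrays). Cyp1b1, a cytochrome P450 enzyme, read 10.04 to 10.92 and 9.39 to 9.80, a log2 difference of -0.83 (adjusted p 0.231, and 0.0273 without the 2 arrays).

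Other genes that passed without the 2 arrays encode matrix proteins, receptors and a transporter. Tnxb, the matrix protein tenascin-X, differed by -0.96 and overlapped in 1 array. Egfr, the receptor for epidermal growth factor, differed by -0.87, with 10.16 to 11.25 at 18 weeks and 9.46 to 10.16 at 40 weeks. Ghr, the growth hormone receptor, differed by -0.60 and Il6st, the shared signalling receptor of the interleukin-6 family, by -0.36, both without overlap. Fbln5, an elastic fibre protein, differed by -0.47, and Abca9, a relative of Abca8a, by -0.53. The adjusted p-values of these 6 genes ran from 0.22 to 0.628 with all 23 arrays and from 0.0304 to 0.0496 without the 2.

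The growth factor list held 18 measured genes, of which 5 lay lower at an unadjusted p under 0.05, against 3.9% of all genes, and none higher. Besides Pdgfra these were the fibroblast growth factor receptors Fgfr2 (-0.45) and Fgfr1 (-0.39), insulin-like growth factor Igf1 (-0.38) and its binding protein Igfbp3 (-0.54). Fgfr2 read 10.86 to 11.21 at 18 weeks and 10.41 to 10.69 at 40 weeks, without overlap. The list median was -0.10, against 0.0168 over all genes, and -0.04 without 18 weeks replicate 2. In the TGF-beta and BMP list, 3 of 28 genes lay lower at that p against the same 3.9%, the ligands Tgfb2 (-0.57) and Tgfb3 (-0.50) and the signal carrier Smad3 (-0.31), and Inhba, the activin subunit, lay higher (0.41). In the Wnt list, 5 of 25 lay lower against 3.9% and none higher: the secreted antagonist Wif1 (-0.64), the receptors Fzd4 (-0.45) and Fzd1 (-0.24), and the co-receptors Lrp6 (-0.27) and Lrp5 (-0.26). Wif1 read 11.21, 12.21, 12.15 and 11.48 at 18 weeks and 11.19, 11.04, 11.07 and 11.18 at 40 weeks, but it also differed by -0.57 in CBA, and by -0.38 there without 40 weeks replicate 3. No member of these 3 lists passed adjustment with all arrays, and Pdgfra alone passed without the 2, where 0.221% of all genes passed as lower.

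Genes of the cartilage matrix showed no difference beyond their spread. Of 24 matrix genes 22 lay lower at 40 weeks, against 8807 of all 19937 genes, with none at an unadjusted p under 0.05. Their median was -0.16, and 0.01 without 18 weeks replicate 3. Col2a1 read 10.04, 10.24, 11.38 and 10.19 at 18 weeks and 10.78, 10.46, 9.95 and 10.21 at 40 weeks, a log2 difference of -0.11 (SE 0.26, adjusted p 0.979). Acan read 11.05, 12.23, 12.00 and 10.09 at 18 weeks and 11.83, 11.20, 11.47 and 11.08 at 40 weeks, a log2 difference of 0.05 (SE 0.467). The 18-week arrays spread more widely than the 40-week ones in some chondrocyte genes: the SD of Acan was 0.98 and 0.33, that of Sox9, the transcription factor of chondrocytes, 0.66 and 0.10, and that of Col10a1, the collagen of hypertrophic cartilage, 0.76 and 0.25. In each of the 3, 18 weeks replicates 2 and 3 were the highest and replicate 4 the lowest. Sox9 differed by 0.0094, Col10a1 by -0.02, Comp, cartilage oligomeric matrix protein, by -0.15 and Prg4 by -0.08, all with overlapping arrays. The direction of Col2a1, Acan, Sox9, Col10a1 and Comp changed when single arrays were left out.

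Among the enzymes that cut the matrix, Adamts5 had the lowest p. It read 10.43, 10.98, 10.14 and 10.03 at 18 weeks and 9.99, 9.81, 9.59 and 9.70 at 40 weeks, so that the groups did not overlap. The log2 difference was -0.62 (SE 0.183, unadjusted p 0.00267, adjusted p 0.416, and 0.0626 without the 2 arrays), and in CBA it was -0.17 (SE 0.183), or -0.08 without 40 weeks replicate 3. The other aggrecanase, Adamts4, differed by 0.15 (SE 0.167). Mmp13 read 12.49, 12.06, 12.84 and 12.24 at 18 weeks and 12.26, 12.54, 12.16 and 12.11 at 40 weeks, a log2 difference of -0.14 (SE 0.243), and Mmp3, stromelysin, differed by -0.37 (SE 0.348). Mmp3 ranged from -0.69 without 18 weeks replicate 4 to -0.02 without 18 weeks replicate 1, and Adamts4 from 0.04 without 18 weeks replicate 4 to 0.33 without 18 weeks replicate 3. The ages overlapped for these 3 genes. Of 26 proteases and inhibitors, 4 lay lower at an unadjusted p under 0.05, against 3.9% of all genes, and none higher: Adamts5, the gelatinase Mmp2 (-0.48), its inhibitor Timp2 (-0.35) and Adamts12 (-0.31). Timp3, the inhibitor of aggrecanases, differed by -0.21 (SE 0.182), or -0.04 without 18 weeks replicate 2, and Timp1 by -0.13 (SE 0.305). The list median was -0.16, and -0.05 without 18 weeks replicate 1.

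The superficial zone list, genes of the gliding surface of cartilage, had a median of -0.43, and 5 of its 12 genes lay lower at an unadjusted p under 0.05, against 3.9% of all genes. Igfbp5, a binding protein of insulin-like growth factors, read 11.68, 12.00, 11.41 and 11.39 at 18 weeks and 11.52, 10.95, 10.86 and 10.82 at 40 weeks, a log2 difference of -0.58 (SE 0.161, adjusted p 0.38). Dpt, dermatopontin, differed by -0.90 (adjusted p 0.589) and Thbs4, thrombospondin 4, by -0.85 (adjusted p 0.63), both lowest in 40 weeks replicate 3. Gdf10, a bone morphogenetic protein relative, differed by -0.50 and Tppp3, a tubulin-binding protein, by -0.55. Prg4, the lubricant of the same zone, was given above and did not follow them. The list median stayed between -0.59 and -0.29 under the alternatives tried.

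Markers of tissue around the cartilage lay lower together with these genes. Osteoblast and osteocyte markers had a median of -0.30, with array means of 9.17 to 9.67 at 18 weeks and 9.04 to 9.21 at 40 weeks, and 4 of 12 lay lower at an unadjusted p under 0.05, against 3.9% of all genes. They were Kera, the proteoglycan keratocan of cornea and osteoblasts (-1.24), Dmp1, a matrix protein of osteocytes (-0.78), Pdpn, podoplanin (-0.55), and the phosphate regulator Phex (-0.52). Kera differed by -1.40 in CBA, and by -1.63 there without 40 weeks replicate 3. Synovial fibroblast and tendon markers had a median of -0.20, with means of 9.28 to 9.63 and 9.07 to 9.37, and 4 of 13 lay lower against 3.9%: Angptl7 (-1.40), Fap (-0.52), Cd34 (-0.46) and Dpp4 (-0.46). Angptl7, a secreted angiopoietin-like protein, read 11.23, 12.39, 10.94 and 10.20 at 18 weeks and 10.32, 9.53, 10.45 and 8.86 at 40 weeks, the lowest log2 difference of all genes, but the groups overlapped (SE 0.405, adjusted p 0.416). Adipocyte markers had a median of -0.29, with 5 of 18 lower against 3.9%, among them the fatty acid carrier Fabp4 (-0.60) and the hormone leptin, Lep (-0.71). Between the same ages in CBA, the list mean differed by -0.25 for synovial fibroblasts and tendon, by -0.22 for osteoblasts and osteocytes and by -0.07 for adipocytes, or by -0.24, -0.13 and -0.06 without 40 weeks replicate 3. Without single arrays the Str/ort median was at most -0.13 for synovial fibroblasts and tendon (18 weeks replicate 1) and -0.19 for adipocytes (18 weeks replicate 2). In the fit without the 2 arrays Dpp4 passed (adjusted p 0.0278), and no other marker of these 3 lists did, where 0.221% of all genes passed as lower. In CBA Dpp4 differed by -0.52 (SE 0.152), with 40 weeks replicate 3 lowest at 8.95 and the rest of that group at 9.65 to 9.71. Fap differed there by -0.51, or by -0.39 without 40 weeks replicate 3. The part of these tissues in the differences of the growth factor and surface genes was not tested.

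Of 25 collagens 24 lay lower, against 8807 of all 19937 genes, and 2 lay lower at an unadjusted p under 0.05, against 3.9%. Their median was -0.21, or -0.13 without 18 weeks replicate 3. Col14a1, a fibril-associated collagen, read 11.13, 10.52, 10.38 and 10.03 at 18 weeks and 10.42, 9.82, 9.47 and 9.29 at 40 weeks, a log2 difference of -0.76 (SE 0.226, adjusted p 0.422). Col4a1 of basement membranes differed by -0.29 (SE 0.0888) without overlap. Col1a1, the collagen of bone and fibrous tissue, differed by -0.25 (SE 0.24), or -0.08 without 18 weeks replicate 3, and Postn, the matricellular protein periostin, by -0.09 (SE 0.292). The genes of hyaluronan and proteoglycan synthesis had a median of 0.01 and gave Ugdh, which supplies their sugar precursor, at -0.65 (SE 0.199, adjusted p 0.452). The 22 genes of protein folding and secretion had a median of -0.13, and 2 lay lower at an unadjusted p under 0.05, against 3.9% of all genes. In 6 of the 22 the ages did not overlap and all 6 lay lower, against 3.24% of all genes. Among the 6 was the chaperone Hspa5, which read 12.71 to 12.78 at 18 weeks and 12.34 to 12.68 at 40 weeks (-0.27, adjusted p 0.636).

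**Figure D3:**
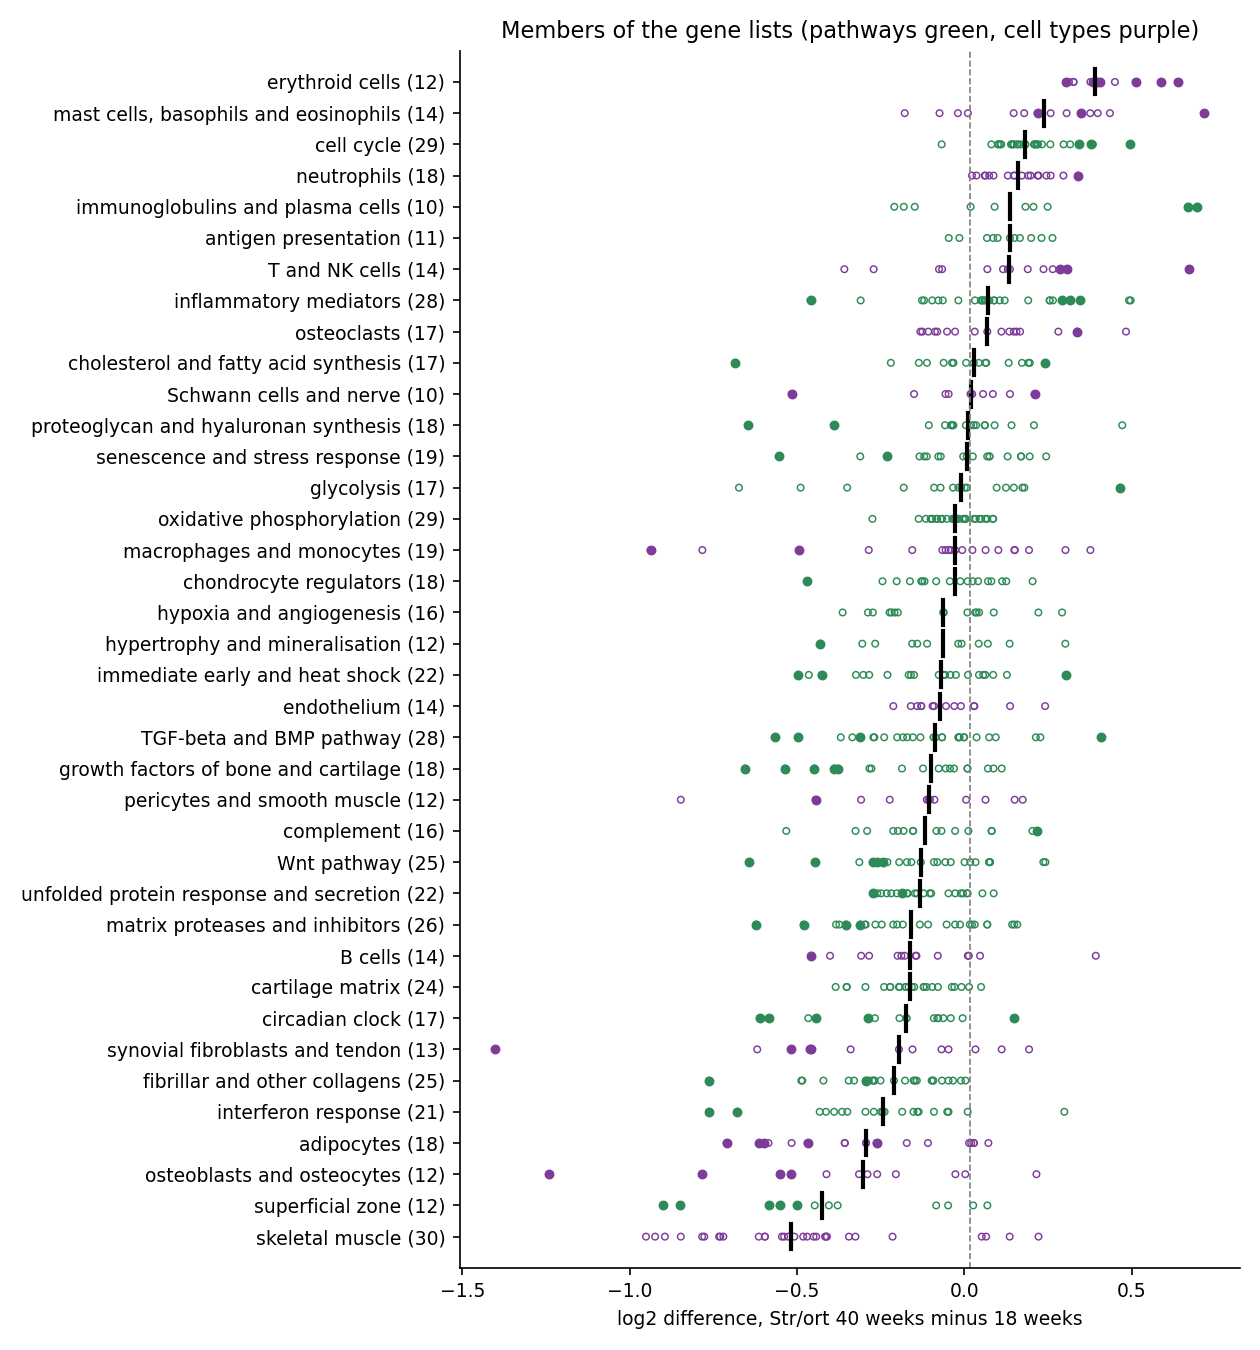
Log2 difference between 40 and 18 weeks in Str/ort (horizontal axis) for the measured members of 38 gene lists (rows, number of members in brackets), pathways in green and cell types in purple. Filled points have an unadjusted p under 0.05, black bars are list medians and the dashed line is the median of all genes; medians run from -0.52 for skeletal muscle to 0.39 for erythroid cells.

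The genes with more signal at 40 weeks were led by immunoglobulin genes, which plasma cells and B cells transcribe. Igkv6-20, a variable segment of the kappa light chain, read 8.53, 8.72, 9.39 and 8.95 at 18 weeks and 10.42, 9.51, 10.42 and 11.55 at 40 weeks. The log2 difference of 1.58 was the largest of all genes (SE 0.302, adjusted p 0.111, and 0.0327 without the 2 arrays). Igha, the heavy chain of IgA, read 11.07, 10.09, 11.23 and 11.04 at 18 weeks and 11.52, 11.67, 12.50 and 12.51 at 40 weeks, a log2 difference of 1.19 (SE 0.375, adjusted p 0.478). Jchain, which joins IgA and IgM units, read 11.35 to 11.43 at 18 weeks and 11.63 to 12.30 at 40 weeks (0.67, adjusted p 0.488), and Ighm, the heavy chain of IgM, 10.59 to 11.08 and 11.27 to 11.85 (0.70, adjusted p 0.564). Probes of related immunoglobulin segments may share transcripts, so single segments are uncertain. All 8 kappa variable segments measured, grouped after their values were seen, lay higher, with a median of 0.78. The list of immunoglobulins and plasma cells was less uniform. Of its 10 measured genes 7 lay higher and 3 lower, with a median of 0.14. At an unadjusted p under 0.05, 2 lay higher, against 2.29% of all genes.

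Most of these genes lay higher at 40 weeks in CBA too. There the log2 difference was 1.74 (SE 0.302) for Igkv6-20, 0.68 (SE 0.214) for Jchain, 0.72 (SE 0.246) for Ighm and 0.75 as the median of the 8 kappa segments. Without CBA 40 weeks replicate 3 the first 3 values were 1.79, 0.89 and 1.01. Igha differed by 0.40 in CBA, or by 0.70 without that array. The difference between strains was -0.16 (SE 0.426) for Igkv6-20, -0.02 (SE 0.302) for Jchain and 0.79 (SE 0.531, adjusted p 0.993) for Igha. Without CBA 40 weeks replicate 3 these were -0.21, -0.23 and 0.49. Ighg3, an IgG heavy chain, went the other way in Str/ort, with 9.71, 9.10, 9.06 and 8.42 at 18 weeks and 7.98, 8.17, 7.75 and 7.68 at 40 weeks (-1.18, SE 0.471, adjusted p 0.653), and differed by 0.60 (SE 0.471) in CBA, or by 0.95 without 40 weeks replicate 3. B cell markers as a list had a median of -0.16, with 1 of 14 lower at an unadjusted p under 0.05, against 3.9% of all genes. That marker was Ebf1, a factor of B cells and of mesenchymal cells, at -0.46. Cd3g, a chain of the T cell receptor complex, read 7.64, 7.16, 7.70 and 7.65 at 18 weeks and 7.80, 8.39, 8.42 and 8.22 at 40 weeks (0.67, SE 0.206, adjusted p 0.45), and Cd8a and Cd8b1, the co-receptor chains of cytotoxic T cells, lay 0.29 and 0.31 higher. Those 3 were the only ones of 14 T and NK cell markers at an unadjusted p under 0.05, against 2.29% of all genes higher.

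Other genes leading the higher side are known from different tissues. Hsd3b6, a steroid dehydrogenase, read 7.08, 6.78, 6.78 and 6.96 at 18 weeks and 7.51, 8.11, 8.15 and 8.00 at 40 weeks, a log2 difference of 1.04 (SE 0.241, adjusted p 0.231, and 0.0273 without the 2 arrays), and it differed by 0.76 (SE 0.241) in CBA, or by 1.06 without 40 weeks replicate 3. Apol10a, an apolipoprotein L gene, read 9.97, 9.84, 9.84 and 10.37 at 18 weeks and 11.06, 10.69, 11.41 and 11.07 at 40 weeks (1.05, SE 0.236, adjusted p 0.231). Ranbp3l, a nuclear transport protein, lay 0.85 higher (SE 0.195, adjusted p 0.231). Olfm4, a granule protein of neutrophils, read 12.09, 12.20, 11.92 and 12.22 at 18 weeks and 12.77, 12.58, 12.62 and 12.76 at 40 weeks (0.57, SE 0.154, adjusted p 0.364, and 0.0209 without the 2 arrays). Aldoc, a glycolytic aldolase, read 8.20 to 8.54 and 8.73 to 9.06 (0.47, SE 0.105, adjusted p 0.231, and 0.0413 without the 2 arrays), while the glycolysis list as a whole had a median of -0.0096.

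All erythroid markers lay higher at 40 weeks. The 12 measured members differed upward, by 0.30 to 0.64, with a median of 0.39, and 7 had an unadjusted p under 0.05 against 2.29% of all genes. Alas2, the first enzyme of haem synthesis in red cell precursors, read 12.37, 12.24, 12.56 and 12.70 at 18 weeks and 12.74, 12.80, 12.96 and 12.95 at 40 weeks (0.40, SE 0.134, adjusted p 0.523, and 0.0455 without the 2 arrays). Trim10, an erythroid RING finger gene, lay 0.64 higher and Epb42, a red cell membrane protein, 0.59 higher. The list mean read 10.91, 10.77, 11.19 and 11.36 at 18 weeks, 11.35, 11.45, 11.51 and 11.59 at 40 weeks, and 11.60, 11.38 and 11.29 at 8 weeks. The 18-week arrays therefore lay mostly below both other ages, replicates 1 and 2 the furthest. In CBA the list mean differed by -0.18 between the ages, and by 0.04 without 40 weeks replicate 3.

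Cell cycle genes were likewise lowest in 18 weeks replicates 1 and 2. Of 29 measured, 28 lay higher at 40 weeks, against 11130 of all 19937 genes, with a median of 0.18. At an unadjusted p under 0.05, 3 lay higher, against 2.29% of all genes, and 9 lay higher without overlap, against 3.12%. Tk1, thymidine kinase, read 10.32, 10.44, 10.41 and 10.59 at 18 weeks and 10.81, 10.93, 11.04 and 10.96 at 40 weeks (0.49, SE 0.168, adjusted p 0.529, and 0.0273 without the 2 arrays). Tyms, thymidylate synthase, lay 0.38 higher and E2f1, a cell cycle transcription factor, 0.34 higher. The list mean was 10.68 to 10.96 at 18 weeks and 10.95 to 11.08 at 40 weeks. With the erythroid mean as a covariate the median of the cell cycle list was -0.12, and the medians of antigen presentation (0.14), T and NK cells (0.13), immunoglobulins and plasma cells (0.14) and neutrophils (0.16) became -0.09, -0.05, -0.09 and -0.02. This covariate itself differed between the ages, and the median of the erythroid list became 0.0083 with it. Part of any age difference is therefore taken out with it. The part of red cell precursors in these differences was not tested.

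Other marrow and blood markers lay slightly higher. All 18 neutrophil markers differed upward, by 0.02 to 0.34, against 11130 of all 19937 genes. At an unadjusted p under 0.05, 1 lay higher, against 2.29% of all genes. It was Ctsg, the granule protease cathepsin G (0.34, or 0.22 without 18 weeks replicate 3). Mast cell, basophil and eosinophil markers had a median of 0.24. At that p 3 of 14 lay higher, against 2.29% of all genes: Ccr3, the eotaxin receptor (0.72), Il5ra, the interleukin-5 receptor (0.35), and Siglecf (0.22). Osteoclast markers had a median of 0.07, with Car2, carbonic anhydrase 2, at 0.34. With the erythroid mean as a covariate the mast cell median was 0.05, the osteoclast median -0.08 and Car2 0.05. Macrophage markers had a median of -0.03, although Gpnmb, a glycoprotein of macrophages and osteoblasts, read 9.35, 9.24, 8.52 and 8.35 at 18 weeks and 8.51, 7.51, 7.91 and 7.78 at 40 weeks (-0.94, SE 0.22, adjusted p 0.231). Retnla and Lyve1, known from resident macrophages and, for Lyve1, lymphatic vessels, lay lower without overlap, with log2 differences of -1.18 (SE 0.445) and -0.87 (SE 0.269); Retnla differed by -0.71 without 18 weeks replicate 2.

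Skeletal muscle markers varied between arrays rather than between ages. The mean of the 30 markers was 10.82, 7.82, 7.85 and 11.28 at 18 weeks and 10.63, 8.32, 9.30 and 7.55 at 40 weeks, so that 3 of the 8 arrays lay above 10. Ckm, muscle creatine kinase, read 9.17 to 13.12 at 18 weeks and 8.76 to 12.52 at 40 weeks (-0.54, SE 0.985). None of the 30 had an unadjusted p under 0.05, and the list median of -0.52 became 0.44 with the erythroid mean as a covariate. With the muscle mean as a covariate 6 genes passed the test between 40 and 18 weeks, all lower and all 6 among the 67.

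**Figure D4:**
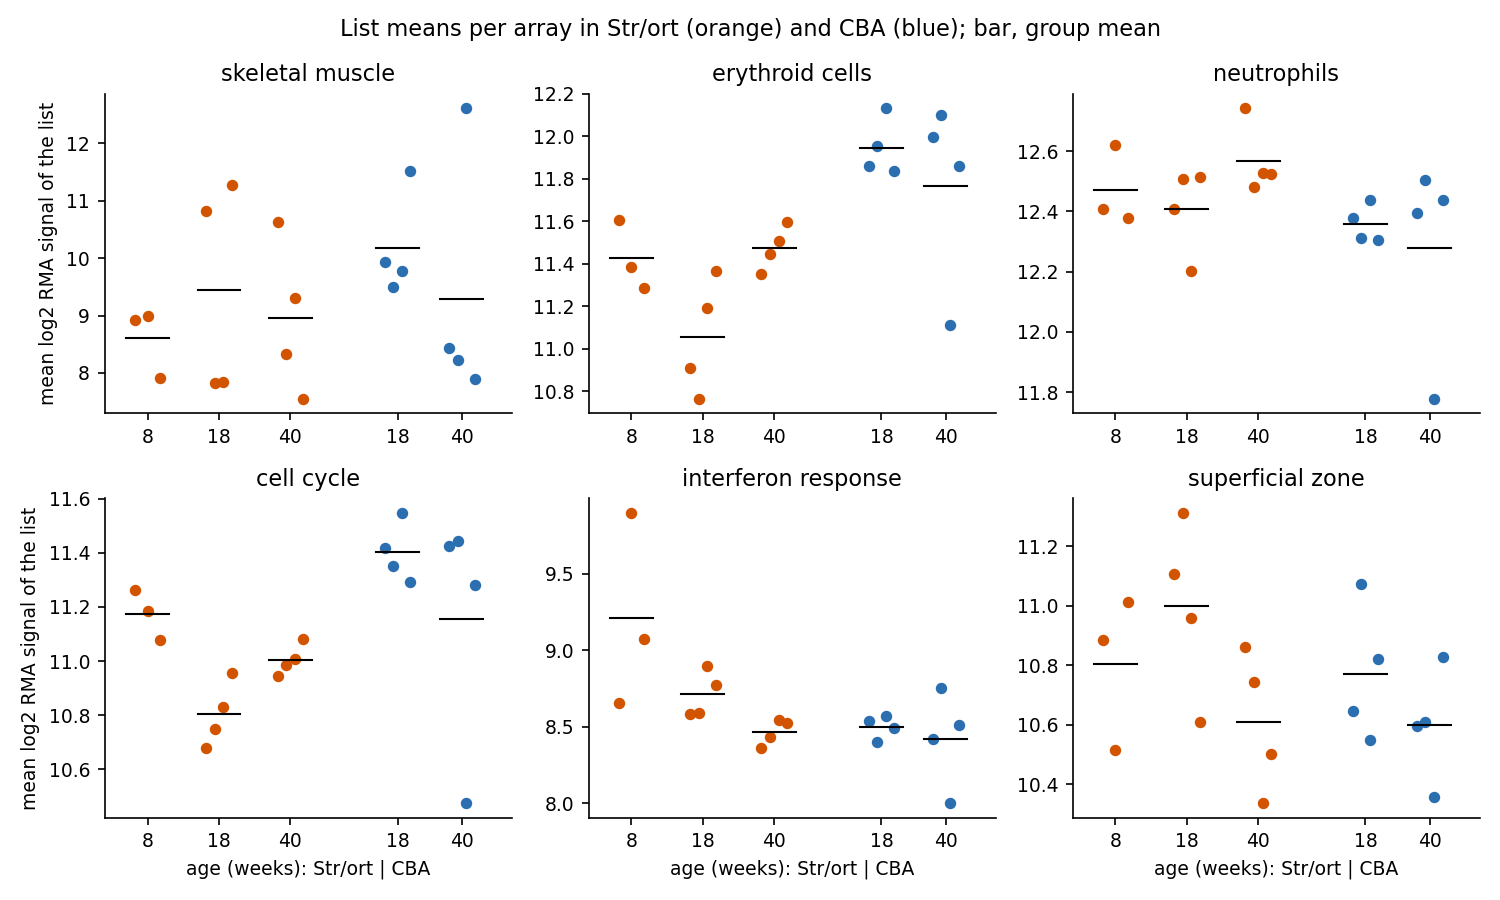
Mean log2 signal of 6 gene lists on each array (vertical axes, points) by age in weeks, Str/ort in orange and CBA in blue, with bars at group means. Str/ort muscle means spread from 7.55 to 11.28, erythroid and cell cycle means lay lowest at 18 weeks, and superficial zone means reached 11.31 at 18 weeks and 10.86 at 40 weeks.

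The median difference of the inflammatory genes was small, at 0.07. Of 28 mediators, 20 lay higher and 8 lower at 40 weeks, against 11130 and 8807 of all 19937 genes. At an unadjusted p under 0.05, 3 lay higher, against 2.29% of all genes, and 1 lower, against 3.9%. Il6, interleukin-6, read 4.53, 4.39, 4.44 and 4.51 at 18 weeks and 4.50, 5.03, 4.79 and 4.71 at 40 weeks (0.29, SE 0.108, adjusted p 0.602). Il11 lay 0.35 and Tnf 0.32 higher, and Osmr, the oncostatin M receptor, differed by -0.46. Ccl2, a monocyte chemokine, differed by 0.19 (SE 0.151), from 0.08 without 40 weeks replicate 2 to 0.36 without 40 weeks replicate 1. Tnfaip6, a hyaluronan-binding protein induced by inflammation, read 8.85, 8.45, 9.38 and 7.35 at 18 weeks and 8.18, 10.21, 7.35 and 10.18 at 40 weeks, a difference of 0.47 within its spread (SE 0.473), from 0.06 without 40 weeks replicate 2 to 1.02 without 40 weeks replicate 3. The complement list had a median of -0.12, with Hc, complement C5, at 0.22.

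Interferon response genes lay lower at 40 weeks. Of 21 measured, 19 lay lower, against 8807 of all 19937 genes, with a median of -0.24. At an unadjusted p under 0.05, 2 lay lower against 3.9% of all genes, and 5 lay lower without overlap against 3.24%. Oas2, an antiviral oligoadenylate synthetase, read 9.05, 9.25, 9.35 and 9.25 at 18 weeks and 8.41, 8.26, 9.02 and 8.50 at 40 weeks (-0.68, SE 0.218, adjusted p 0.489). Rtp4, a chaperone induced by interferon, read 8.93 to 9.50 and 7.87 to 8.71 (-0.76, SE 0.28, adjusted p 0.593). The list mean was 8.58 to 8.90 at 18 weeks and 8.36 to 8.54 at 40 weeks, while at 8 weeks it read 8.66, 9.90 and 9.07. In CBA the list mean differed by -0.08, and by 0.06 without 40 weeks replicate 3. The median stayed below 0 in all alternatives tried, from -0.36 to -0.20.

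The remaining lists gave medians between -0.10 and 0.03, against 0.0168 over all genes. They were 0.03 for cholesterol and fatty acid synthesis, where Scd1, a desaturase, lay at -0.68 (SE 0.317, adjusted p 0.798), 0.02 for Schwann cells, 0.0069 for senescence and stress, -0.03 for oxidative phosphorylation and for chondrocyte regulators, -0.06 for hypoxia, -0.07 for hypertrophy, for immediate early genes and for endothelium, and -0.10 for pericytes. In the stress list Foxo1, a transcription factor of cell maintenance, read 10.15, 10.85, 10.34 and 9.84 at 18 weeks and 9.67, 9.81, 9.74 and 9.75 at 40 weeks (-0.55, SE 0.158, adjusted p 0.416). Sox5, a partner of Sox9, differed by -0.47 (SE 0.187, adjusted p 0.652, or -0.24 without 18 weeks replicate 2) and Jun, an immediate early factor, by -0.50 (SE 0.197, adjusted p 0.652). Alpl, the phosphatase of mineralising tissue, differed by -0.43 in Str/ort and by -0.40 in CBA, or -0.18 there without 40 weeks replicate 3.

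The difference between the strains in the change from 18 to 40 weeks was tested directly. In limma 0 of 19937 genes passed (0%), 541 had an unadjusted p under 0.05, and the lowest adjusted p was 0.993; the count was 0 in every alternative tried. In CBA itself 0 genes passed between 40 and 18 weeks (0%), with 767 at an unadjusted p under 0.05. The leading 30 genes were chosen for large Str/ort differences, and that choice alone favours smaller differences in CBA. Among these 30, the CBA difference had the same direction and a size of at least 0.55 for 7, among them Kera, Igkv6-20, Igkv8-30, Ighm, Jchain and Hsd3b6. It lay between -0.11 and 0.11 for Clic5, Fkbp5, Abca8a, Sema3c, Lyve1, Cyp1b1, Ackr2, Serpinb8, Pilrb2 and Cd3g. Without CBA 40 weeks replicate 3 it was 0.05 for Fkbp5, 0.09 for Cyp1b1, 0.04 for Ackr2 and -0.11 for Lyve1, but -0.19 for Clic5, -0.17 for Abca8a, -0.26 for Sema3c, 0.12 for Serpinb8, 0.25 for Pilrb2 and 0.35 for Cd3g. For Clic5, a chloride channel protein, the Str/ort difference was -1.06 (SE 0.286), for the guidance factor Sema3c -0.96 (SE 0.307), for the chemokine scavenger Ackr2 -0.83 (SE 0.208, or -0.53 without 18 weeks replicate 2) and for the protease inhibitor Serpinb8 -0.79 (SE 0.212). Tbx5, a limb transcription factor, differed by -0.87 (SE 0.249) in Str/ort and by -0.31 (SE 0.249) in CBA, or by -0.07 without that array.

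**Figure D5:**
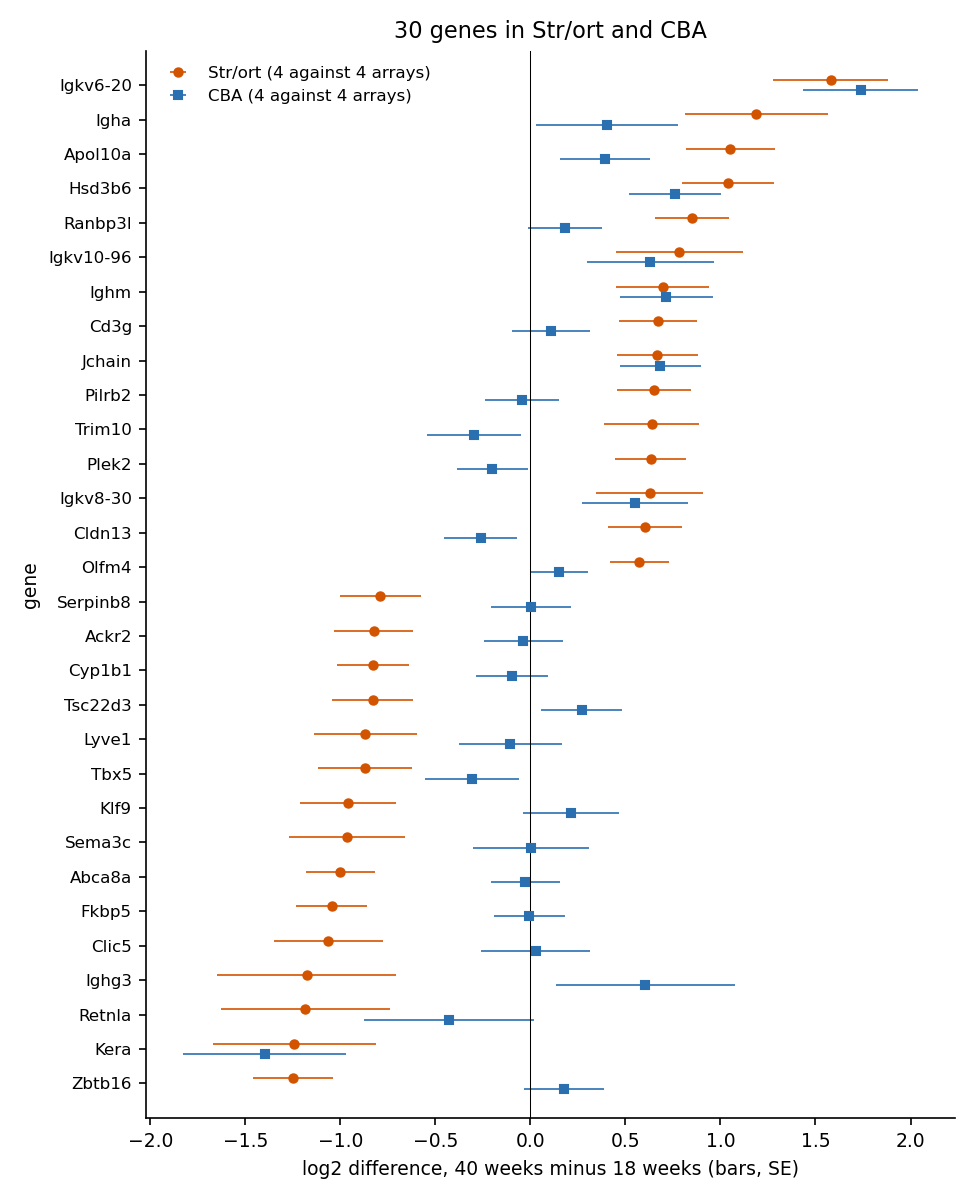
Log2 difference between 40 and 18 weeks (horizontal axis, with SE bars) for the 15 largest non-overlapping differences in each direction in Str/ort (orange circles), beside the same difference in CBA (blue squares). Igkv6-20 and Kera lay far from 0 in both strains. Zbtb16, Fkbp5 and Abca8a lay at -1.0 or below in Str/ort and at 0.18, -0.0050 and -0.03 in CBA. The genes were chosen by their Str/ort differences, and no difference between strains passed the test.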

How the data were processed

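RNA from joint cartilage was hybridised to Affymetrix Mouse Gene arrays, 1 array per sample. The deposited values are log2 signals that the authors made with RMA, per the submitters' processing notes, which name no version. They were used as deposited. Of 34760 transcript clusters, 21640 carry 1 gene in the platform annotation, 1321 several and 11799 none. For 954 genes with several clusters the one with the highest mean was kept, which left 19937 genes; 21553 clusters matched RefSeq GRCm38.p6 by identifier and 87 did not. The number of arrays limits the precision.

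Using R 4.3.3 and limma 3.58.1, 1 mean per strain and age was estimated from the 23 arrays together, with 17 residual degrees of freedom and 4.15 from the prior. P-values are two-sided and adjusted over all genes by Benjamini and Hochberg, and a gene passed at an adjusted p under 0.05. The fit was tested on simulated data. The comparison, the 38 gene lists (764 entries, 690 genes measured) and the rules were chosen with earlier results of these data known. Genes named are the 15 largest non-overlapping differences each way, taken from those at an unadjusted p under 0.05 because none passed and without predicted or unnamed symbols, the 2 members of each list with the lowest p, and 17 genes always given; others were named after their values were seen.

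Alternatives were array weights (statmod 1.5.0), quantile normalization, a replicate block, clusters of a gene averaged, the dimmest genes removed (11963 remained), a trend on intensity with robust estimation, the 8 or the 11 Str/ort arrays alone, no outlying CBA arrays, the muscle or erythroid mean as a covariate, and each of the 8 compared arrays left out in turn; leaving CBA 40 weeks replicate 3 out of CBA differences was chosen after seeing the data. Clusters with several genes or none were used only in 1 fit over all clusters, and promoters on chromosome 18 were not searched.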

Additional observations from a re-analysis of the deposited data

Results flagged for a closer look

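In 310 groups of 4 arrays (117 genes and 38 list means at both ages), 11 held 1 array whose gap to the others exceeded Dixon's 95% critical value; chance alone meets this in about 1 in 20 groups. Among genes with 1 high array, Kera read 9.04 in 18 weeks replicate 1 against 7.65 to 7.82 in the other 3, Col2a1 read 11.38 in 18 weeks replicate 3 against 10.04 to 10.24, Rgs5, a pericyte gene, read 11.66 in 18 weeks replicate 2 against 11.40 to 11.44, Scd1 read 11.99 in 40 weeks replicate 2 against 11.43 to 11.49, and Ciita, the regulator of class II antigen presentation, read 8.31 in 40 weeks replicate 4 against 8.05 to 8.08.

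Among those with 1 low array, Igha read 10.09 in 18 weeks replicate 2 against 11.04 to 11.23, and Cd3g read 7.16 in the same array against 7.64 to 7.69. The mean of the T and NK cell list was 7.44 there against 7.67 to 7.71. In 18 weeks replicate 4, Col4a1 read 9.27 against 9.43 to 9.44 and the mean of the matrix proteases and inhibitors was 9.78 against 10.16 to 10.20. Timp2 read 11.28 in 40 weeks replicate 3 against 11.48 to 11.51.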

How the results depend on the processing

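Against 0 genes with all 23 arrays, 342 passed with array weights, 67 without the 2 CBA arrays, 6 with the muscle covariate and 2 without the dimmest 40% of genes. The count was 0 to 13 when single arrays of the comparison were left out, 13 without 18 weeks replicate 4 and 2 without 18 weeks replicate 3 or 40 weeks replicate 2. Of alternatives added after seeing the data, leaving out CBA 40 weeks replicate 3 alone gave 10. It stayed 0 with the mean of clusters, quantile normalization, trend and robust settings, the 8 or the 11 Str/ort arrays alone, the erythroid covariate and the replicate block. Whether replicate numbers pair the samples could not be settled. Correlations of same-numbered deviations were 0.277, 0.237, 0.1 and -0.333. The 18-week array best correlated with 40 weeks replicates 1, 2, 3 and 4 was replicate 4, 2, 3 and 3. With the replicate block the 67 became 33. Leaving out single arrays moved the 67 to between 0 and 564. Of the 690 measured members of the gene lists, 0 passed with all arrays, 32 with array weights, 7 without the 2 CBA arrays and 0 to 1 with single arrays left out. Over all 19937 genes the same counts were 0, 342, 67 and 0 to 13.

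Of 117 named genes, 10 changed direction under at least 1 alternative. Pygm became 0.23 and H2-Ab1 -0.0785 with the erythroid covariate. With single arrays left out, Comp ranged from -0.37 to 0.0255, Mmp13 from -0.26 to 0.0026, Timp1 from -0.46 to 0.0356, Col2a1 from -0.26 to 0.19, Postn from -0.33 to 0.12, Col10a1 from -0.33 to 0.22, Sox9 from -0.24 to 0.20 and Acan from -0.37 to 0.35. Col10a1 was 0.0864 with array weights and 0.0278 with the erythroid covariate, Sox9 -0.0655 with the muscle covariate, and Acan -0.0035 with array weights and -0.0924 with the muscle covariate. The cause was not tested. In 43 named genes at least 1 alternative brought the adjusted p under 0.05. With 4 arrays per age and a median SE of 0.117, small differences were not detectable, and a missed threshold does not show equal levels.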

Other observations

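Among the 67 genes that passed without the 2 CBA arrays, some belong to no list. The paired immunoglobulin-like receptors Pilrb1 and Pilrb2, whose near-identical sequences may share probes, lay 0.56 and 0.65 higher at 40 weeks. Urod, an enzyme of haem synthesis, lay 0.48 higher, Isg20, an exonuclease induced by interferon, 0.45 higher, and Creg1, a lysosomal glycoprotein, 0.45 higher. On the lower side were Ano1, a calcium-activated chloride channel (-0.75), Ism1, a secreted isthmin (-0.70), Enpep, an aminopeptidase of vessel walls (-0.65), Plpp3, a lipid phosphatase (-0.62), Smarca1, a chromatin remodeller (-0.62), and Stab1, a scavenger receptor (-0.42). None of these passed with all 23 arrays, where their adjusted p-values ran from 0.098 to 0.558.

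Over all 34760 clusters, including those with several genes or none, 0 passed with all arrays and 14 without the 2 CBA arrays, 4 of them among the 13120 clusters that do not carry exactly 1 gene.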
